A study of Mus musculus with 121 samples.

Results

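Lum, Dcn, Postn, Thbs1, Thbs2, Thbs4, Fn1, Sparc, Fbn1 and Tnc are 10 genes of the non-collagen matrix that stromal cells lay down around a tumour. They were chosen by gene symbol in the array annotation, with 1 probe for each gene. Of these 10 genes 9 had a probe with a single gene symbol, 8 had values on at least 90% of the arrays, and 7 also passed the brightness filter. Those 7 (Lum, Dcn, Postn, Thbs2, Thbs4, Sparc and Tnc) were tested, out of 12962 genes tested on the arrays and 18069 with a single-symbol probe. Fbn1 had no such probe. Fn1 had values on 107 of 121 arrays (88.4%) and on none of the gamma arrays of 70 Gy, so its levels are described without a test. Thbs1 was dimmer than the filter allowed (mean log2 intensity -1.66, against a limit of -1.08), and its changes come from a fit without that filter.

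Tumour RNA was measured on 121 1-colour CodeLink arrays, on which each value is the brightness of 1 probe (intensity, linear scale). Male C3H/HeMs mice carried 1 of 6 transplanted tumours in a hind leg. These were a radiation-induced fibrosarcoma (g_8520 and c_8520 in the sample names, the induced fibrosarcoma in what follows), nfsa (a fibrosarcoma that arose spontaneously), mmca and mca4 (both mammary), and scc7 and nrs1 (both labelled squamous cell carcinoma). The leg received a single local dose of gamma rays (30, 50 or 70 Gy, 81 arrays in 34 groups with their unirradiated controls) or of carbon ions (30 Gy, 40 arrays in 20 groups with theirs). Of the 54 groups 41 held 2 arrays and 13 held 3.

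At day 1 after gamma rays the induced fibrosarcoma, nfsa, mmca and mca4 each had a 30, a 50 and a 70 Gy group. Later gamma groups of the induced fibrosarcoma were 30 Gy at days 8 and 16 and 50 Gy at day 22, those of nfsa 30 and 50 Gy at days 4 and 9, those of mmca 30 Gy at day 9 and 50 Gy at day 19, and those of mca4 30 Gy at day 11 and 50 Gy at days 25 and 41. For scc7 they were 30 Gy at day 8 and 50 Gy at days 23 and 35, and for nrs1 30 Gy at day 8 and 50 Gy at day 15. The unirradiated gamma groups (0 Gy) were of day 1 in the 4 tumours named first and also of day 9 in mmca. Carbon groups were 6 hours and days 1, 3, 5 and 20 in mmca and mca4 with an unirradiated group of hour 0, and days 5 and 20 (day 42 for scc7) in the other tumours. Unirradiated gamma arrays of scc7 and nrs1, and unirradiated carbon arrays of both fibrosarcomas, scc7 and nrs1, were not analysed here. Each tumour is 1 transplanted line in 1 host strain, and the host supplies the vessels, leukocytes and normal fibroblasts of the transplant.

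Fibroblasts secrete collagen together with proteins that organise it, and this non-collagen layer sets fibril thickness, binds growth factors and gives cells their footholds. Lum (lumican) and Dcn (decorin) are small leucine-rich proteoglycans that coat collagen fibrils, and decorin also binds TGF-beta. Postn (periostin), Tnc (tenascin-C), Sparc and the thrombospondins Thbs1, Thbs2 and Thbs4 are matricellular proteins, which act on cells and enzymes in the matrix and are raised in wounds and tumour stroma. Fn1 (fibronectin) and Fbn1 (fibrillin) are the fibril-forming scaffolds to which many of the others bind.

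The 10 genes lie on 8 chromosomes, and only Lum and Dcn lie near each other (GRCm38.p6, chr10:97565501-97572703 and chr10:97479500-97518163). The others are Postn (chr3:54359267-54391041), Thbs1 (chr2:118111876-118127133), Fbn1 (chr2:125300594-125506485), Thbs2 (chr17:14665500-14694262), Thbs4 (chr13:92751586-92794818), Fn1 (chr1:71585473-71653280), Sparc (chr11:55394159-55420080) and Tnc (chr4:63959785-64047015).

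The 250 bases before the transcription start are shown for Postn and Thbs2, which both rose in late mmca after gamma rays and at day 20 after carbon ions in both mammary carcinomas. They are also shown for Thbs4, whose intensity ranged most over the gamma arrays. The sequences are those of RefSeq (GRCm38.p6), 5′ to 3′ on the gene's strand. Capitals mark matches, on either strand, to 4 motifs. The TATA box was searched as TATAAA. The CCAAT box, which general factors bind near many starts, was searched by its name. The motif of the TEAD factors, partners of the YAP coactivator, was searched as GGAATG. The motif of Sp1, a factor of many housekeeping genes, was searched as GGGCGG.
Postn, chr3:54359017-54359266, plus strand: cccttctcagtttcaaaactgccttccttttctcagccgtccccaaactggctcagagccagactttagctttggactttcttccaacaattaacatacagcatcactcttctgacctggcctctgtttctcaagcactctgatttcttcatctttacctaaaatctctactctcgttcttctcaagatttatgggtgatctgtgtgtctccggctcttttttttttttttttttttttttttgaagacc
Postn, second start, chr3:54360857-54361106, plus strand: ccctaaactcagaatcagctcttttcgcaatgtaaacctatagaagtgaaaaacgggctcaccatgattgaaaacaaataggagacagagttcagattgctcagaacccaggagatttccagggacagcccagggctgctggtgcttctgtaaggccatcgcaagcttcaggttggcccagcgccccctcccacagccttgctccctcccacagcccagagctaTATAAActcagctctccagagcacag
Thbs2, chr17:14694263-14694512, minus strand: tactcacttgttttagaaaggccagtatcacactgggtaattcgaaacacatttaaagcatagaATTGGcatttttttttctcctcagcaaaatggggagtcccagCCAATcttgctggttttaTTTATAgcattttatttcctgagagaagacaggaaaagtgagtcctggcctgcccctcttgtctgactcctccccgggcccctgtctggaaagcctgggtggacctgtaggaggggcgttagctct
Thbs4, chr13:92794819-92795068, minus strand: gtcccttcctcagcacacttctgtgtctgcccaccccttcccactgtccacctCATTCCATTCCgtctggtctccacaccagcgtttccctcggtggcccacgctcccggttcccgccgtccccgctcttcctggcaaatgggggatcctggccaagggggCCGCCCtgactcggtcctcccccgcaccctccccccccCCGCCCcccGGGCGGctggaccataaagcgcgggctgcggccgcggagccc
The first Postn window holds none of these letters, and the second holds a TATA box whose first base is 26 bases before the start. The Thbs2 window holds CCAAT letters at 186 and 144 bases and TATA box letters at 126 bases before the start. The Thbs4 window holds a pair of TEAD matches that overlap by a base (197 and 192 bases before the start) and 3 Sp1 matches (89, 51 and 42 bases before it). Over 32851 promoter windows of the same length the shares with a match were 12.4% for the TATA box, 33.8% for the CCAAT box, 12.6% for TEAD and 32.7% for Sp1. The letters TGANTCA of the AP-1 motif (6.7%) were in none of the windows shown. The Sparc window (chr11:55420081-55420330) held none of the letters searched.

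Pairs of arrays of 1 group had a median r of 0.9968 across genes in the gamma day 1 groups and 0.9972 in the carbon groups, against 0.9898 in the later gamma groups. The members spread far more in those later groups. The SD within groups after day 1 was 1.42 log2 for Thbs4, 1.28 for Lum, 0.95 for Dcn, 0.60 for Postn, 0.39 for Thbs2, 0.34 for Tnc and 0.21 for Sparc, against 0.07 to 0.15 at day 1. Whether the arrays of a group stand for separate mice is not stated in the labels, so the p-values cover the spread between arrays and this spread may be technical. The fit pools it over all groups. No gene lay more than 1 log2 higher in every group of one mammary carcinoma than in every group of the other, in either experiment, against 125 to 1991 genes for the other pairs of gamma tumours. In the labelled squamous carcinoma scc7 the summed epithelial markers (5 of the 6 had a probe) lay within the range of the fibrosarcomas. The sum was 2.5 to 4.81 in scc7, 0.96 to 5.48 in the fibrosarcomas, 149 to 288 in the mammary carcinomas and 824 to 926 in nrs1 (gamma). In scc7 Krt5 was 0.246 to 0.395, Krt14 0.198 to 0.298 and Epcam 0.460 to 0.572. Krt8 was the exception, at 1.24 to 2.64 in scc7, above the fibrosarcomas (0.119 to 0.758) and overlapping the mammary carcinomas (0.447 to 3.18). The fibroblast markers of scc7 summed to 676 to 858, within the range of the fibrosarcomas (569 to 1024). S100a4 (371 to 430) and Gsn (173 to 282) were the largest parts of that sum. Acta2 went the other way, at 2.36 to 5.62 in scc7. It was 88.9 to 215 in the induced fibrosarcoma, 23.4 to 212 in nfsa, 12.9 to 53.3 in mmca and 7.94 to 59.9 in mca4. Mfap5 (3.47 to 7.33), Thy1 (0.705 to 1.80) and Dpt (3.55 to 17.6) of scc7 lay below nfsa. In nfsa these were 18.0 to 63.5, 8.75 to 13.8 and 28.5 to 63.0. All 3 overlapped the induced fibrosarcoma, and Pdgfra (68.2 to 113 in scc7) overlapped both fibrosarcomas. In bulk tumour RNA fewer cells of a type and less RNA per cell cannot be told apart.

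The levels of several members differed between tumours. Thbs4, a thrombospondin of tendon and muscle, was 145 to 369 on gamma nfsa arrays (median 243) and at most 70.2 on any gamma array of another tumour. On carbon arrays it was 164 to 189 in nfsa and at most 50.3 elsewhere, so nfsa stood clear of all other tumours in both experiments. Tnc, a hexameric glycoprotein of wounds and tumour stroma, was 5.43 to 12.7 on gamma scc7 arrays and at least 44.2 on every other gamma array. On carbon arrays Tnc was 23.5 to 55.9 in scc7 and at least 94.9 elsewhere. Dcn was 83.7 to 304 in the induced fibrosarcoma (median 135), 25.2 to 97.9 in nfsa and 35.8 to 122 in scc7. It was 0.618 to 30.0 in mmca, 0.994 to 48.0 in mca4 and 2.35 to 16.2 in nrs1, so that these 3 tumours overlapped little with the first 3.

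Thbs2, an inhibitor of vessel growth, was highest in nfsa (33.0 to 120, median 53.8) and between 4.40 and 34.5 in the other gamma tumours. Fn1 was 211 to 346 in the induced fibrosarcoma and 202 to 337 in scc7, 59.7 to 202 in mmca, 63.9 to 174 in mca4, 30.8 to 105 in nfsa and 25.1 to 50.9 in nrs1. On carbon arrays Fn1 was again high in the induced fibrosarcoma (200 to 270) and scc7 (180 to 257), and low in nfsa (22.3 to 53.8) and nrs1 (43.7 to 76.2). The tumour highest in Thbs4 and Thbs2 was among the lowest in Fn1. Sparc, a collagen-binding protein, ranged least of the tested members, 5.12-fold from its lowest to its highest gamma array. Thbs4 ranged most, 610-fold, with 492-fold for Dcn and 103-fold for Lum. Thbs1, a thrombospondin that platelets release, stayed between 0.169 and 0.748 on all gamma arrays.

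**Figure D1:**
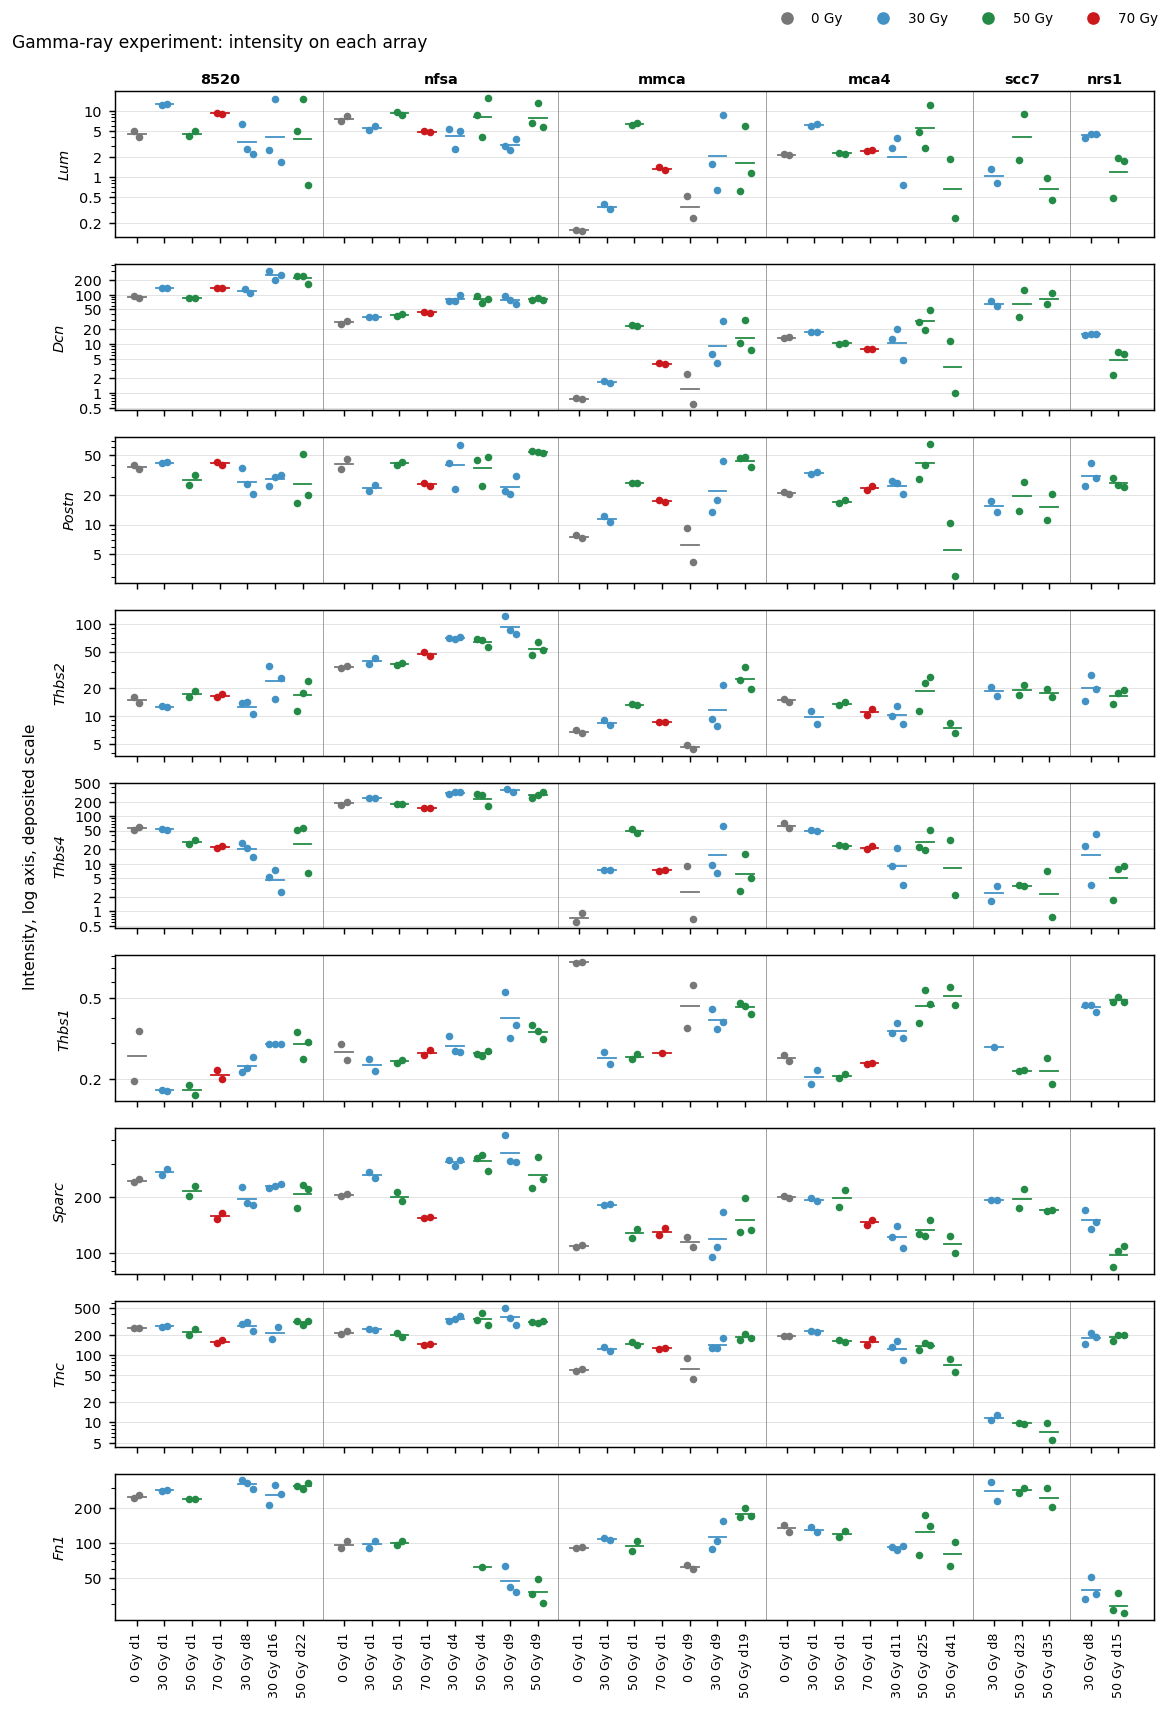
Intensity (log axis) of the 9 members with a probe on each of the 81 gamma arrays, 1 panel per gene, with columns for the groups of each tumour in order of time and dose, coloured by dose. Points are single arrays and short bars are group means of log2 values. Thbs4 lies highest in nfsa and Tnc lowest in scc7, and Lum, Dcn and Thbs4 spread over more than 10-fold within mmca.

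Among unirradiated tumours of the gamma experiment, mmca was far below mca4. Dcn had intensities of 0.784 and 0.768 in mmca against 13.1 and 13.5 in mca4 at day 1. Thbs4 had 0.605 and 0.914 in mmca against 70.2 and 57.7 in mca4, and Lum 0.16 and 0.153 in mmca against 2.24 and 2.13 in mca4. No tested member's mmca arrays overlapped its mca4 arrays. All 7 tested members were lower in mmca at an adjusted p under 0.05 (limma), in a comparison that called 51.8% of all genes and 28.4% as lower. Thbs4 differed by -6.42 ± 0.86 log2 (SE), Dcn by -4.10 ± 0.57, Lum by -3.80 ± 0.84, Tnc by -1.68 ± 0.22, Postn by -1.45 ± 0.38, Thbs2 by -1.12 ± 0.29 and Sparc by -0.86 ± 0.17. Summed skeletal muscle markers (17 of 18 with a probe) were 22.8 and 24.4 in mmca and 478 to 544 in mca4, and their part in the members' difference was not tested.

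In the carbon experiment the hour 0 arrays of the same tumours did not show this difference. Of the 7 members 0 passed (2.71% of all genes called). Dcn was 6.40 and 6.95 in mmca against 4.16 and 4.32 in mca4, and Thbs4 was 20.4 and 22.2 in mmca against 13.0 and 11.3 in mca4. Muscle markers there summed to 159 to 170 in mmca and 135 to 139 in mca4. Between the unirradiated fibrosarcomas 2 of 7 members differed (45.5% of all genes called). Dcn was higher, at 95.3 and 84.9 in the induced fibrosarcoma against 25.2 and 29.8 in nfsa (1.72 ± 0.57 log2, adjusted p = 0.0103). Thbs2 was lower, at 16.0 and 13.8 in the induced fibrosarcoma against 33.0 and 34.6 in nfsa (-1.18 ± 0.29, adjusted p = 0.000462). The Dcn call ended without replicate 1 of either tumour.

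At day 1 after gamma rays members passed the test in mmca and not in the other 3 tumours. In mmca 6 of 7 passed, all upwards, where 33.1% of all genes were called and 18.0% upwards. In the induced fibrosarcoma (50.9% of all genes), nfsa (29.0%) and mca4 (42.8%) 0 of 7 passed. These counts depend on the spread pooled with the later gamma groups, which was wider. With only the arrays of the groups contrasted in the fit, the calls over these tumours went from 6 to 20. In nfsa Dcn was at least 34.5 in each irradiated group of day 1, against 25.2 and 29.8 unirradiated, and was not called. Averaged over the 3 doses, Thbs4 rose in mmca by 4.21 ± 0.71 log2 (adjusted p = 2.77e-06), Lum by 3.21 ± 0.68 (adjusted p = 0.000158) and Dcn by 2.80 ± 0.46 (adjusted p = 2.3e-06). Postn rose by 1.19 ± 0.31 (adjusted p = 0.00182), Tnc by 1.13 ± 0.18 (adjusted p = 9.75e-07) and Sparc by 0.40 ± 0.14 (adjusted p = 0.0167), while Thbs2 was at 0.54 ± 0.23 (adjusted p = 0.0648). The change in mmca exceeded that in mca4, by the test of the difference itself, for 6 of 7 members, where 35.7% of all genes passed. The differences were 5.31 ± 1.00 for Thbs4, 3.05 ± 0.66 for Dcn, 2.62 ± 0.96 for Lum, 1.25 ± 0.25 for Tnc, 0.93 ± 0.33 for Thbs2 and 0.57 ± 0.19 for Sparc. That of Lum ended without any 1 of the 4 control arrays and under quantile normalization. That of Thbs2 ended without mmca control replicate 2 or mca4 control replicate 1, and that of Sparc without replicate 1 of either. In the same test between the mammary carcinomas and the fibrosarcomas 3 of 7 passed (21.9% of all genes), of which that of Thbs4 ended without any of 7 of the 8 controls and that of Postn without nfsa control replicate 2, and between the fibrosarcomas 0 of 7 (20.3%).

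The rise in mmca did not follow dose. Dcn was 0.784 and 0.768 at 0 Gy, 1.81 and 1.60 at 30 Gy, 23.7 and 23.3 at 50 Gy and 4.08 and 3.84 at 70 Gy. Thbs4 was 0.605 and 0.914 at 0 Gy, 7.44 and 7.41 at 30 Gy, 53.8 and 43.6 at 50 Gy and 6.97 and 7.52 at 70 Gy. Lum was 0.16 and 0.153 at 0 Gy, 0.392 and 0.324 at 30 Gy, 6.25 and 6.50 at 50 Gy and 1.41 and 1.27 at 70 Gy. For all 3 genes the irradiated arrays lay above the unirradiated ones without overlap and the 50 Gy arrays were the highest. Skeletal muscle markers on the same arrays summed to 22.8 and 24.4 at 0 Gy, 44.2 and 42.9 at 30 Gy, 339 and 368 at 50 Gy and 33.6 and 33.2 at 70 Gy. They were highest at 50 Gy too, and their part in the members' values was not tested. Tnc was less uneven, at 58.8 and 62.2 at 0 Gy, 133 and 115 at 30 Gy, 155 and 141 at 50 Gy and 124 and 127 at 70 Gy.

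With the 30 Gy arrays alone, 3 members passed in mmca (Thbs4 at 3.32, Tnc at 1.03 and Sparc at 0.73), and the Sparc call ended with the 50 Gy or the 70 Gy arrays alone. With the day 1 controls of both mammary carcinomas pooled as the reference, the mmca changes were 1.31 for Lum, 1.00 for Thbs4, 0.75 for Dcn and 0.29 for Tnc, and only that of Lum passed (adjusted p = 0.0462). With 1 value per group 0 members passed. Leaving out 1 array at a time, the Postn call ended without control replicate 2 and that of Sparc without either control.

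Thbs1 moved against the others in mmca at day 1. Its intensity was 0.271 and 0.239 at 30 Gy, 0.252 and 0.266 at 50 Gy and 0.269 at 70 Gy (1 array without a value), against 0.743 and 0.748 in unirradiated mmca. These controls were the highest Thbs1 values on any gamma array. Unirradiated mmca of day 9 was at 0.357 and 0.580, and unirradiated mca4 of day 1 at 0.247 and 0.263. No irradiated mmca array overlapped the day 1 controls of mmca. The change from them was -1.52 ± 0.17 log2 (adjusted p = 8.43e-11, limma fit without the brightness filter). In the induced fibrosarcoma it was -0.47 ± 0.16 (adjusted p = 0.0126, same fit). The controls there were 0.1969 and 0.345, and the irradiated arrays of day 1 ran from 0.1687 to 0.2225. The lower control thus lay within the irradiated range, near the floor of 0.1269. In mca4 Thbs1 rose later, by 0.43 ± 0.18 at day 11, 0.85 ± 0.18 at day 25 and 1.00 ± 0.20 at day 41 (adjusted p = 1.71e-05). Its day 41 arrays were 0.563 and 0.464, against 0.263 and 0.247 unirradiated, without overlap. After carbon ions it was lower in mca4 at days 1 and 3, at 0.344 and 0.341 and at 0.320 and 0.237, against 0.638 and 0.566 at hour 0 (-0.81 ± 0.20 and -1.13 ± 0.20). At the other times Thbs1 was higher than at day 3. It ran from 0.394 to 0.607 at 6 hours, 0.3285 to 0.532 at day 5 and 0.4855 to 0.549 at day 20.

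Between 70 and 30 Gy at day 1 the brightest members were lower at the higher dose. In the induced fibrosarcoma Sparc was 152 and 163 at 70 Gy against 262 and 282 at 30 Gy (-0.79 ± 0.17 log2) and Tnc was 150 and 165 at 70 Gy against 264 and 268 at 30 Gy (-0.76 ± 0.22). These were 2 of 7 members, with 24.0% of all genes called. In nfsa Sparc fell to 154 and 155 at 70 Gy, against 272 and 251 at 30 Gy (-0.76 ± 0.17), and Tnc to 143 and 144 at 70 Gy, against 242 and 237 at 30 Gy (-0.74 ± 0.22). These too were 2 of 7 members, with 27.5% called. In mmca Sparc alone fell (-0.48 ± 0.17, 28.7% called), and in mca4 0 members passed (11.8% called). The brightest 5% of all genes (649 genes, Sparc and Tnc among them) had a median change of -0.58 in the induced fibrosarcoma, -0.59 in nfsa, -0.33 in mmca and -0.32 in mca4. The median over all genes lay between -0.08 and 0.06. After quantile normalization none of the 5 calls passed, and in the induced fibrosarcoma Sparc was at 0.0429 and Tnc at 0.11. The mmca Sparc call ended without any 1 array, and those of Tnc without replicate 1 of either dose in the induced fibrosarcoma and replicate 2 of either dose in nfsa.

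Later after gamma rays 6 of 7 members passed in mmca over days 9 and 19 against unirradiated tumours of day 9, all upwards (42.4% of all genes called, 25.6% upwards). Dcn rose by 3.15 ± 0.46 log2 (adjusted p = 5.2e-08), Lum by 2.38 ± 0.68 (adjusted p = 0.00331), Postn by 2.31 ± 0.31 (adjusted p = 2.79e-09) and Thbs4 by 1.94 ± 0.71 (adjusted p = 0.0216). Thbs2 rose by 1.89 ± 0.23 (adjusted p = 3.32e-10) and Tnc by 1.36 ± 0.18 (adjusted p = 2.7e-09). The mmca change exceeded that of mca4 for 6 of 7 members, where 49.1% of all genes passed the test of that difference. The differences were 3.94 ± 1.00 for Thbs4, 2.75 ± 0.66 for Dcn, 1.98 ± 0.33 for Thbs2, 1.95 ± 0.25 for Tnc, 1.68 ± 0.43 for Postn and 0.87 ± 0.19 for Sparc. Those of Postn and Thbs4 ended without mmca control replicate 2. The controls were unlike, mmca of day 9 (muscle sums 26.6 and 45.9) and mca4 of day 1 (478 and 544). Control means of Dcn were 0.31 log2 in mmca and 3.73 in mca4. Its late irradiated means were 3.19 and 3.74 in mmca and 3.38 and 4.89 in mca4, so for Dcn irradiated mmca did not stand above irradiated mca4. The irradiated means of the other members are not compared here. The part of the controls in these differences was not tested. Between the mammary carcinomas and the fibrosarcomas the late change differed for 3 of 7 members (39.0% of all genes), namely Lum (1.95 ± 0.67), Postn (1.80 ± 0.30) and Sparc (-0.38 ± 0.13).

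**Figure D2:**
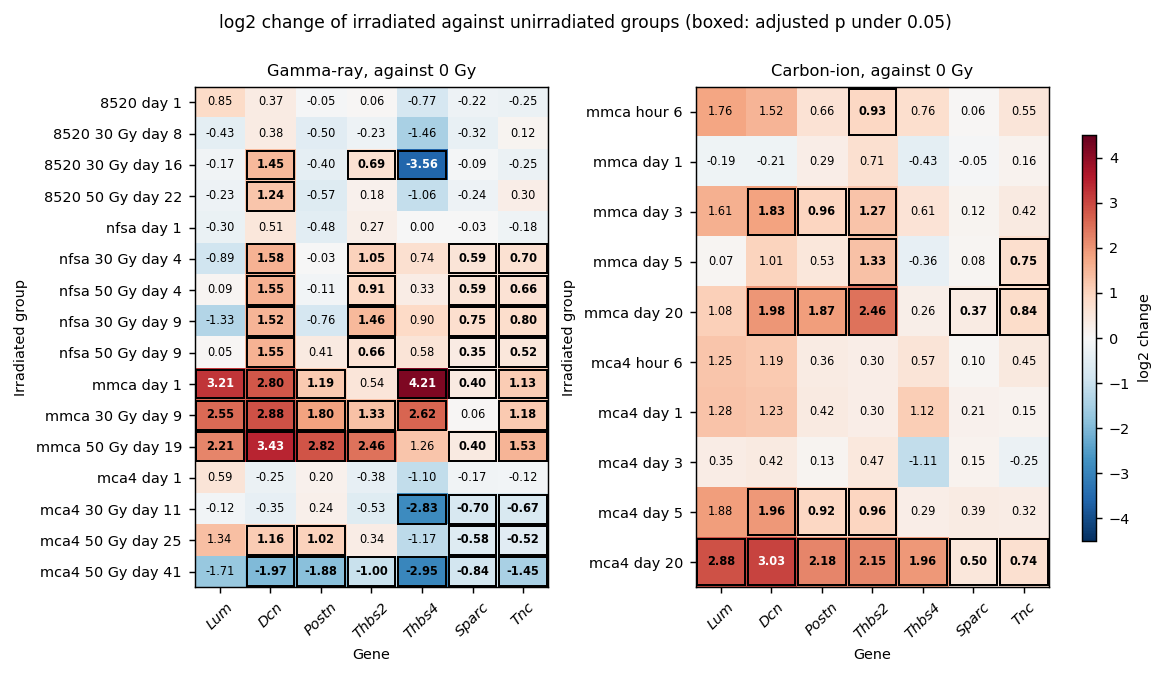
Log2 change of each tested member (columns) in each irradiated group, or the mean of the 3 doses of day 1, against its unirradiated control (rows). Gamma comparisons are on the left and the carbon comparisons of mmca and mca4 on the right, and called changes are boxed and bold. The mmca gamma rows are positive for all 7 members, the mca4 gamma rows of days 11, 25 and 41 are negative for Thbs4, Sparc and Tnc, and the carbon day 20 row of mca4 holds 7 called rises.

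Postn, Thbs2 and Tnc stood clear of their mmca controls at both late times. Postn was 46.3, 48.2 and 38.2 at 50 Gy day 19 and 13.5, 17.5 and 43.4 at 30 Gy day 9, against 9.27 and 4.19 in unirradiated mmca of day 9. Thbs2 was 24.8, 34.2 and 19.5 at 50 Gy day 19 and 9.23, 7.81 and 21.8 at 30 Gy day 9, against 4.89 and 4.40 unirradiated. Tnc was 169, 203 and 177 at 50 Gy day 19 and 125, 128 and 180 at 30 Gy day 9, against 89.6 and 44.2 unirradiated. Dcn was 10.4, 30.0 and 7.63 at 50 Gy day 19 and 6.38, 4.01 and 29.6 at 30 Gy day 9, against 2.50 and 0.618 unirradiated. It too did not overlap its controls but spread widely. Of the members 6 of 7 passed at 30 Gy day 9 (23.0% of all genes called) and 6 of 7 at 50 Gy day 19 (50.5%), where Sparc (0.40 ± 0.15) passed and Thbs4 (1.26 ± 0.79) did not. With only the arrays of the groups contrasted in the fit, all 6 calls at 30 Gy day 9 ended. With the day 1 controls of both mammary carcinomas pooled as the reference, Thbs2 there was at 0.21 and did not pass (adjusted p = 0.43), nor did Thbs4. Fn1, the untested scaffold gene, was 169, 202 and 170 at 50 Gy day 19 and 88.7, 104 and 154 at 30 Gy day 9, against 65.0 and 59.7 in unirradiated mmca of day 9.

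The late Lum and Thbs4 calls in mmca rested on single arrays. Replicate 3 of mmca 30 Gy day 9 had Lum at 8.84 and Thbs4 at 61.3. The other 2 arrays had Lum at 1.58 and 0.625 and Thbs4 at 9.41 and 6.54. Muscle markers summed to 519 on replicate 3 and to 75.2 and 81.4 on the other 2. Among the controls, replicate 1 of day 9 had Thbs4 at 9.19 and replicate 2 at 0.701. Leaving out control replicate 2 ended the Thbs4 call (0.08) and the Lum call (1.82). Leaving out 30 Gy replicate 3 ended the Thbs4 call and not that of Lum. Over the arrays left out in turn the values were 0.08 to 3.79 for Thbs4 and 1.82 to 2.94 for Lum. Dcn, Postn, Thbs2 and Tnc passed over both groups whichever array was left out, at 2.14 to 4.16, 1.74 to 2.88, 1.67 to 2.04 and 0.85 to 1.87. By group, control replicate 2 also decided Postn and Tnc at 30 Gy day 9 and Sparc at 50 Gy day 19, and 50 Gy replicate 2 decided Lum and Sparc there. In the late mmca comparison (42.4% of all genes called, 25.6% upwards) 6 of 8 tested macrophage markers and 7 of 17 muscle markers also rose. Macrophage sums were 434 to 537 at 50 Gy day 19 and 289 to 333 at 30 Gy day 9, against 131 to 158 in the controls, and their part was not tested.

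In nfsa Dcn and Thbs2 rose in each of the 4 irradiated groups after day 1. Dcn was 74.6, 74.6 and 97.9 at 30 Gy day 4 and 78.7, 83.7 and 78.5 at 50 Gy day 9, against 25.2 and 29.8 unirradiated. Thbs2 was 70.2, 68.4 and 71.6 at 30 Gy day 4 and 120, 86.1 and 78.1 at 30 Gy day 9, against 33.0 and 34.6 unirradiated. Neither gene overlapped its controls in any of the 4 groups. Over both doses of day 9 4 of 7 members passed, all upwards, with 57.5% of all genes called and 24.5% upwards. The change was 1.53 ± 0.46 log2 for Dcn (adjusted p = 0.00366), 1.06 ± 0.23 for Thbs2 (adjusted p = 8.32e-05), 0.66 ± 0.18 for Tnc (adjusted p = 0.00127) and 0.55 ± 0.14 for Sparc (adjusted p = 0.000352). The same 4 genes passed at 30 Gy day 4 (51.8% of all genes), 30 Gy day 9 (51.0%), 50 Gy day 4 (58.1%) and 50 Gy day 9 (59.1%).

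Quantile normalization turned the nfsa day 9 values of Sparc to -0.0736 and of Tnc to -0.11. The Dcn and Tnc calls ended without control replicate 1 (adjusted p up to 0.0757 and 0.0506). By group the Dcn calls ended without control replicate 1 in all 4 groups, and the Tnc calls in all but 30 Gy day 9. At 50 Gy day 9 those of Thbs2 and Sparc ended without either control or without replicate 2. Fn1 ran the other way in nfsa, at 64.1, 42.2 and 38.2 (30 Gy) and 36.8, 49.2 and 30.8 (50 Gy) at day 9 against 90.4 and 103 unirradiated, with no overlap and no test. Macrophage sums were 650 to 911 in the day 9 groups and 514 to 567 unirradiated. Muscle sums were 53.1 to 250 at 30 Gy day 9 and 352 to 2238 at 50 Gy day 9, against 551 to 566 unirradiated. The part of both lists in the members' values was not tested.

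In the induced fibrosarcoma Dcn was higher and Thbs4 lower at the later times. Dcn was 304, 194 and 252 at 30 Gy day 16 and 244, 242 and 164 at 50 Gy day 22, against 95.3 and 84.9 unirradiated, without overlap. Thbs4 was 5.35, 7.58 and 2.52 at 30 Gy day 16, against 52.3 and 58.4 unirradiated. At 50 Gy day 22 the Thbs4 values were 51.2, 57.0 and 6.44, so that 1 of 3 arrays lay within the control range and 1 just under it. Muscle markers summed to 37.5 to 204 at day 16 and 190 to 1568 at day 22, against 633 to 697 unirradiated, and their part in the Thbs4 values was not tested. Over days 8 to 22 Dcn rose by 1.03 ± 0.45 (adjusted p = 0.0392) and Thbs4 fell by 2.02 ± 0.68 (adjusted p = 0.00666), 2 of 7 members with 67.7% of all genes called. By group 0 of 7 passed at 30 Gy day 8 (58.2% of all genes, with 1 array lacking a Dcn value). At day 16 3 passed (65.9%), Dcn at 1.45 ± 0.52, Thbs2 at 0.69 ± 0.26 and Thbs4 at -3.56 ± 0.79. At 50 Gy day 22 Dcn alone passed (65.2%, 1.24 ± 0.52).

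The mean Dcn call in the induced fibrosarcoma ended when any one of 5 arrays was left out, namely both controls, day 8 replicate 1 and day 16 replicates 1 and 3 (0.94 to 1.11). The mean Thbs4 call ended without either control (-2.21 to -1.68). By group only the Thbs4 call of day 16 held whichever array was left out. Set against nfsa, the later change in the induced fibrosarcoma was lower for 4 of 7 members, with 54.6% of all genes passing. The differences were -2.77 ± 0.99 for Thbs4, -0.85 ± 0.32 for Thbs2, -0.77 ± 0.19 for Sparc and -0.60 ± 0.25 for Tnc, and that of Sparc alone passed whichever array was left out. Under quantile normalization all 4 ended, that of Sparc at -0.33 (adjusted p up to 0.164 over its alternatives).

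In mca4 Thbs4, Sparc and Tnc fell, and at day 41 other members fell with them. Over days 11 and 25 Thbs4 fell by 1.9996 ± 0.71 (adjusted p = 0.0109), Sparc by 0.64 ± 0.14 (adjusted p = 2.91e-05) and Tnc by 0.60 ± 0.18 (adjusted p = 0.003). These were 3 of 7 members, none upwards, with 63.7% of all genes called and 35.1% downwards. Sparc was 121, 140 and 106 at 30 Gy day 11 and 126, 123 and 151 at 50 Gy day 25, against 201 and 196 unirradiated, without overlap. At 30 Gy day 11 the same 3 members fell (60.8% of all genes). At 50 Gy day 25 Sparc and Tnc fell while Dcn (1.16 ± 0.52) and Postn (1.02 ± 0.34) rose (60.6%). At 50 Gy day 41 6 of 7 passed, all downwards (56.3% called, 29.7% downwards). Thbs4 was at -2.95 ± 0.86, Dcn at -1.97 ± 0.57, Postn at -1.88 ± 0.38, Tnc at -1.45 ± 0.22, Thbs2 at -0.995 ± 0.29 and Sparc at -0.84 ± 0.17.

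The 2 mca4 arrays of day 41 were unlike. Dcn was 11.6 and 0.994 at day 41 against 13.1 and 13.5 unirradiated, Thbs4 31.1 and 2.18 against 70.2 and 57.7, and Postn 10.4 and 3.02 against 21.2 and 20.2. Their muscle markers summed to 376 and 124, against 478 to 544 in the controls, lower on the array with the lower members. At day 11 the muscle sums were 67.2 to 108, and at day 25 241 to 1031. Without day 41 replicate 2 the Dcn change was -0.20 and the Thbs4 change -1.03, and neither passed. The Thbs4 call over days 11 and 25 ended without either control, the Tnc call over days 11 and 25 under quantile normalization, and the Tnc call at day 11 without day 11 replicate 3. At day 25 the Dcn, Postn and Tnc calls ended without either control, without replicate 1 (Dcn, Tnc) or without replicate 3 (Dcn, Postn). The day 25 Tnc call also ended under 7 other settings, among them quantile normalization, array weights and the arrays of 1 experiment. With the day 1 controls of both mammary carcinomas as the reference, none of the 3 falls over days 11 and 25 passed, and Thbs4 (1.21) and Tnc (0.24) were above 0.

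Without unirradiated arrays, scc7 and nrs1 allow only a later against an earlier group. In nrs1 Dcn was 2.35, 6.98 and 6.19 at 50 Gy day 15 against 15.0, 15.9 and 16.2 at 30 Gy day 8 (-1.75 ± 0.46, adjusted p = 0.00808). Sparc was 83.7, 102 and 109 at day 15 against 169, 134 and 146 at day 8 (-0.61 ± 0.14, adjusted p = 0.00142). These were 2 of 7 members with 12.8% of all genes called, and neither gene's groups overlapped. Dose and time both differ between these groups. The Sparc call ended without day 8 replicate 1, and the Dcn call without that array or day 15 replicate 1. In scc7 0 of 7 differed between day 35 and day 23 (1.13% of all genes called), with Lum at 0.968 and 0.448 at day 35 against 1.79 and 8.95 at day 23 (-2.60 ± 0.84, adjusted p = 0.109). In unirradiated mmca 0 of 7 differed between day 9 and day 1 (21.2% of all genes called).

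At day 20 after carbon ions 7 of 7 members passed in mca4, all upwards (60.0% of all genes called, 24.0% upwards), and 5 of 7 in mmca, all upwards (59.4% called, 22.7% upwards). In mca4 Dcn was 34.1 and 35.0 at day 20 against 4.16 and 4.32 at hour 0 (3.03 ± 0.57, adjusted p = 5.3e-06). Postn was 78.3 and 68.5 at day 20 against 15.6 and 16.7 at hour 0 (2.18 ± 0.38, adjusted p = 8.72e-07), and Thbs2 34.0 and 30.9 at day 20 against 6.83 and 7.83 at hour 0 (2.15 ± 0.29, adjusted p = 1.37e-09). Lum was 5.09 and 5.26 at day 20 against 0.668 and 0.741 at hour 0 (2.88 ± 0.84, adjusted p = 0.00229), and Thbs4, Tnc and Sparc rose by 1.96 ± 0.86, 0.74 ± 0.22 and 0.50 ± 0.17. Every one of these day 20 arrays lay above both hour 0 arrays.

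In mmca Thbs2 was 38.3 and 28.6 at day 20 against 5.53 and 6.58 at hour 0 (2.46 ± 0.29, adjusted p = 1.99e-11). Dcn was 27.5 and 25.2 at day 20 against 6.40 and 6.95 at hour 0 (1.98 ± 0.57, adjusted p = 0.00211), and Postn 60.8 and 55.1 at day 20 against 14.4 and 17.3 at hour 0 (1.87 ± 0.38, adjusted p = 1.69e-05). Tnc (0.84 ± 0.22) and Sparc (0.37 ± 0.17) passed as well, while Lum (1.08 ± 0.84) and Thbs4 (0.26 ± 0.86) did not. The difference between the day 20 changes in mmca and mca4 passed for 0 of 7 members (0.286% of all genes). Thbs2 differed by 0.31 ± 0.41, Postn by -0.31 ± 0.53 and Lum by -1.80 ± 1.18, intervals that leave sizeable differences possible. Fn1 was 178 and 179 at day 20 against 75.9 and 89.2 at hour 0 in mmca, and 240 and 177 at day 20 against 81.3 and 78.4 at hour 0 in mca4. The Thbs4 call in mca4 and the Sparc call in mmca ended when any 1 array of the comparison was left out. The mmca Sparc call also ended with the replicate number as a block. The mca4 Sparc call ended without hour 0 replicate 1 and the mca4 Tnc call without day 20 replicate 1.

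Over the carbon time course Thbs2 was the first member to pass in mmca. It was 5.53 and 6.58 at hour 0, 10.5 and 12.5 at 6 hours, 10.4 and 9.33 at day 1, 15.2 and 13.9 at day 3, 14.9 and 15.4 at day 5 and 38.3 and 28.6 at day 20. Every irradiated array of Thbs2 lay above its hour 0 arrays. At 6 hours Dcn (18.5 and 19.6, against 6.40 and 6.95) and Lum (5.40 and 5.95, against 1.65 and 1.70) did so too, uncalled. The order of calls is therefore not an order of onset, since the fit pools the spread of carbon and gamma arrays. With the arrays of 1 experiment alone, the carbon calls over times in both tumours went from 21 to 54. Thbs2 was called at 6 hours (0.93 ± 0.29, adjusted p = 0.0422, 4.96% of all genes called), a call that leaving out any 1 array, quantile normalization or the replicate block ended. It was not called at day 1 (0 of 7 members, 5.62%), and was called again at days 3 (1.27), 5 (1.33) and 20. At day 3 Dcn (1.83) and Postn (0.955) passed too (3 of 7, 33.5% called), and at day 5 Tnc did (0.75, 2 of 7, 50.3% called). In mca4 0 of 7 members passed at 6 hours (2.27% of all genes), day 1 (1.74%) and day 3 (20.1%), and Dcn (1.96), Postn (0.92) and Thbs2 (0.96) passed at day 5 (41.4%). The Postn calls of both tumours at days 3 and 5 ended without any 1 array. That of Dcn at day 3 in mmca ended without either hour 0 array or day 3 replicate 2, and that of Thbs2 at day 5 in mca4 without hour 0 replicate 1 or day 5 replicate 2.

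Lum and Thbs4 kept no steady course. In mmca Lum was 1.65 and 1.70 at hour 0, 5.40 and 5.95 at 6 hours, 1.44 and 1.49 at day 1, 5.16 and 5.02 at day 3, 1.89 and 1.64 at day 5 and 3.50 and 3.58 at day 20. The 2 arrays of a time lay close while no 2 neighbouring times overlapped. Muscle markers in mmca summed to 159 to 170 at hour 0, 103 to 106 at 6 hours, 163 to 173 at day 1, 198 to 202 at day 3, 234 to 261 at day 5 and 575 to 613 at day 20. Their sum was lowest at 6 hours, a time of high Lum, and its part in the Lum values was not tested. In mca4 Thbs4 was 13.0 and 11.3 at hour 0, 19.1 and 16.9 at 6 hours, 28.8 and 24.0 at day 1, 5.90 and 5.32 at day 3, 16.3 and 13.5 at day 5 and 50.3 and 44.1 at day 20. Muscle sums in mca4 were 135 to 139 at hour 0, 51.95 to 52.3 at 6 hours, 485 to 545 at day 1, 61.3 to 63.4 at day 3, 205 to 272 at day 5 and 874 to 906 at day 20. Both were low at day 3 and highest at day 20. At 6 hours the muscle sum was below and Thbs4 above its hour 0 values, and the part of muscle in Thbs4 was not tested. Macrophage sums in mca4 were 209 to 217 at hour 0, 380 to 412 at day 3, 467 to 583 at day 5 and 704 to 795 at day 20, and in mmca 212 to 217 at hour 0 and 664 to 672 at day 20. At day 20 in mca4 15 of 17 muscle markers, 7 of 8 macrophage markers and 10 of 10 fibroblast markers rose. There 60.0% of all genes were called, 24.0% upwards. The part of these lists in the members' values was not tested.

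**Figure D3:**
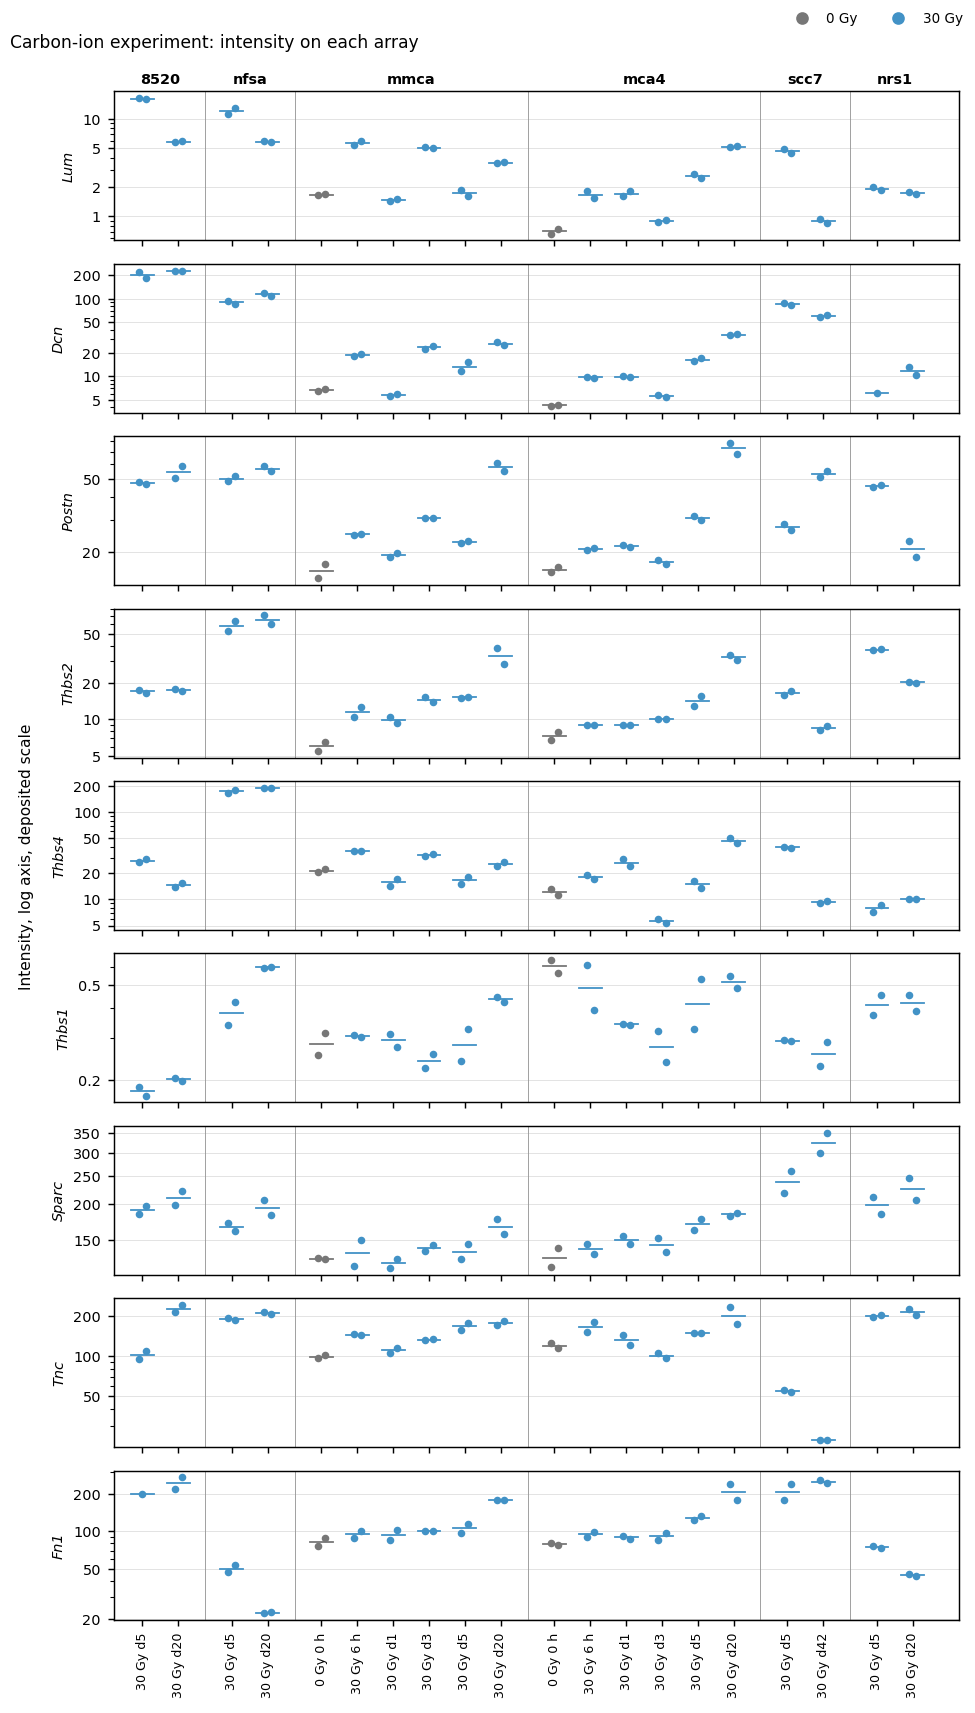
Intensity (log axis) of the 9 members with a probe on each of the 40 carbon arrays, 1 panel per gene, ordered by tumour and time. Points are single arrays, grey at 0 Gy and blue at 30 Gy, and short bars are group means of log2 values. Postn, Thbs2 and Dcn stand highest at day 20 in mmca and mca4, and Lum alternates between times in mmca.

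In the other tumours the later carbon group was set against day 5. In the induced fibrosarcoma Tnc alone passed, at 213 and 241 at day 20 against 94.9 and 109 at day 5 (1.15 ± 0.22, adjusted p = 1.26e-05, 44.9% of all genes called). In nfsa 0 of 7 differed (19.9% called). In nrs1 2 of 7 fell (35.7% called). Postn was 22.9 and 18.8 at day 20 against 45.4 and 46.4 at day 5 (-1.14 ± 0.38), and Thbs2 20.3 and 20.0 at day 20 against 37.1 and 37.6 at day 5 (-0.89 ± 0.29). In scc7 5 of 7 differed at day 42 (32.5% called), and they split. Lum was 0.940 and 0.863 at day 42 against 4.91 and 4.51 at day 5 (-2.39 ± 0.84), and Tnc 23.5 and 23.5 at day 42 against 55.9 and 53.6 at day 5 (-1.22 ± 0.22). Thbs2 fell with them (-0.95 ± 0.29). Postn rose, to 51.2 and 55.4 at day 42 against 28.4 and 26.3 at day 5 (0.96 ± 0.38), as did Sparc (0.45 ± 0.17). Of these late carbon calls, those of Tnc in the induced fibrosarcoma and in scc7 passed whichever array was left out, and each of the others ended without at least 1 array.

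**Figure D4:**
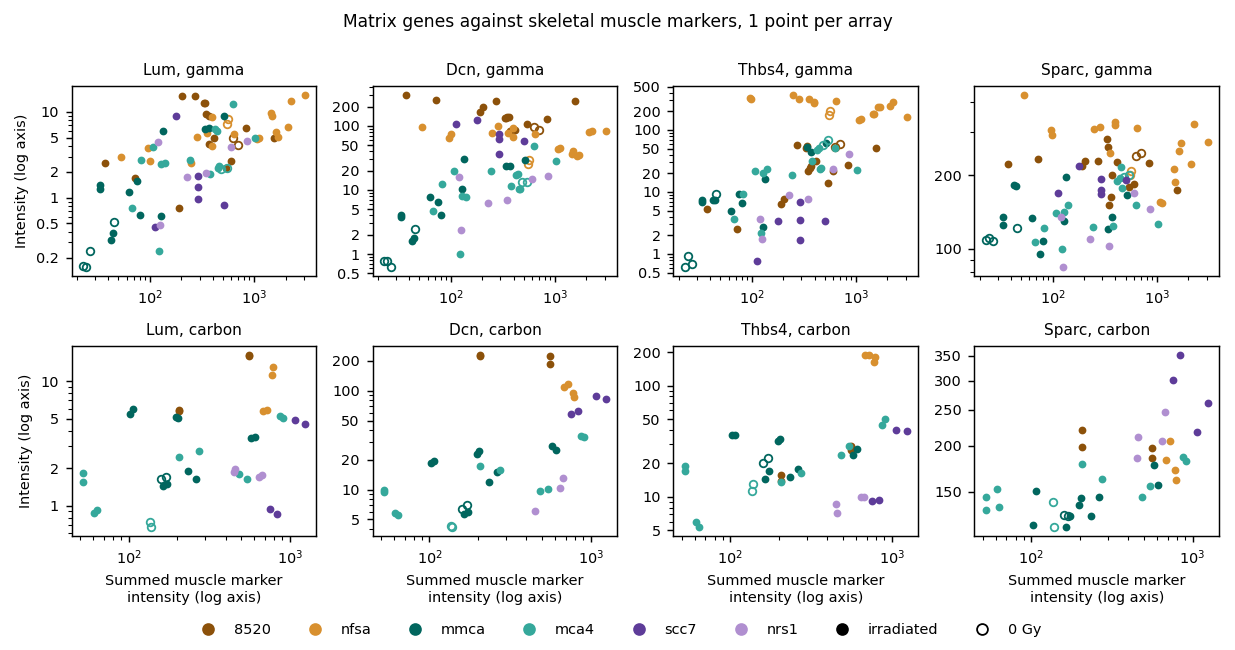
Intensity of Lum, Dcn, Thbs4 and Sparc (log axes) against the summed intensity of skeletal muscle markers (log axis), 1 point per array, coloured by tumour, with gamma arrays in the top row and carbon arrays in the bottom row. Filled points are irradiated and open points 0 Gy. On gamma arrays the open mmca points of day 1 (muscle sums 22.8 and 24.4) lie lowest in Lum. The 50 Gy day 1 arrays (339 and 368) and replicate 3 of 30 Gy day 9 (519) lie at the high end of mmca in muscle sum and in Lum.

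Across the 34 gamma groups the correlation of a member's group mean log2 with that of the muscle marker sum was 0.747 for Lum, 0.699 for Thbs4, 0.618 for Dcn, 0.592 for Postn, 0.573 for Thbs2, 0.475 for Sparc and 0.309 for Tnc. Across the 20 carbon groups it was 0.691 for Sparc, 0.633 for Postn, 0.595 for Thbs2, 0.546 for Dcn, 0.426 for Thbs4, 0.404 for Lum and -0.116 for Tnc. Lum and Thbs4 thus had the highest values in the gamma groups and were among the lowest in the carbon groups. Among themselves the members correlated from 0.171 (Dcn and Tnc) to 0.854 (Lum and Postn) in the gamma groups and from -0.385 (Sparc and Tnc) to 0.775 (Dcn and Lum) in the carbon groups.

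The genes nearest in pattern over the gamma groups were Gask1b (0.854), Postn and Igf1 (0.828) for Lum and Ank (0.922), Lsp1 (0.918) and Hgf (0.917) for Dcn. For Postn they were Itm2a (0.811) and Ccdc80 (0.804) after Lum, for Thbs2 Adamts5 (0.900), for Thbs4 Slit3 (0.896) and Meox2 (0.895), for Sparc Hyi (0.872) and for Tnc Fbln2 (0.930). Over the carbon groups they were Ctsk (0.867) for Lum, Dpysl3 (0.957) and Scara3 (0.949) for Dcn, Col5a2 (0.923) for Postn and Cpxm1 (0.950) and Srpx (0.939) for Thbs2. For Thbs4 it was Col1a1 (0.814), for Sparc Cenpb (0.927) and for Tnc Tmeff1 (0.912) and Fbln2 (0.900). Fbln2 (fibulin-2, a matrix glycoprotein) was thus near Tnc in both experiments. These are descriptions over groups that share tumours and arrays, among 8688 or 8689 candidates for each member, all with a value on every array.

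Other matrix genes were read from lists of proteoglycans, elastic fibre proteins, other glycoproteins, crosslinking enzymes, receptors and the TGF-beta pathway. In late mmca (gamma) 42.4% of all genes were called, 25.6% upwards. There 3 of 7 proteoglycans rose and 1 fell, and 7 of 11 elastic fibre genes rose and 1 fell. Of 21 other glycoproteins 11 rose and 1 fell, and 7 of 12 receptors rose. The medians of these lists, in that order, were 0.84, 0.58, 0.56 and 0.49 log2. All genes had a median of 0.04 and the 7 members 1.94. No list was tested against the share of all genes, here or below. The largest changes were Ogn (osteoglycin, 1.84), the biglycan gene Bgn (1.16), Mfap5 (a microfibril protein, 2.33), Efemp1 (fibulin-3, 1.62), Dpt (dermatopontin, 2.29), Tgfbi (2.22) and Ecm1 (1.99). Of 8 crosslinkers 3 rose and 3 fell, with the lysyl oxidases Lox (2.48) and Loxl1 (2.24) up and the lysyl hydroxylase Plod1 (-1.49) down. In the TGF-beta list 1 of 8 rose and 1 fell, the activin subunit Inhba (1.35) and the pseudoreceptor Bambi (-0.46).

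At carbon day 20 in mca4 60.0% of all genes were called, 24.0% upwards. There 3 of 7 proteoglycans rose and 2 fell, and 7 of 11 elastic fibre genes rose and 1 fell. Of 21 other glycoproteins 11 rose and 1 fell. Of 8 crosslinkers 5 rose and 3 fell, of 12 receptors 5 rose and 1 fell, and of 8 TGF-beta genes 2 rose and 3 fell. Dpt (3.45), Efemp1 (2.64), Ogn (2.40), Lox (1.90), Loxl1 (1.84), Bgn (1.75) and Plod1 (-2.16) led them, and the median was 2.15 for the members against -0.14 for all genes. At carbon day 20 in mmca 59.4% of all genes were called, 22.7% upwards. There 3 proteoglycans, 5 elastic fibre genes, 8 other glycoproteins, 4 crosslinkers, 6 receptors and 1 TGF-beta gene rose. In the same order of lists 2, 1, 2, 3, 1 and 2 genes fell.

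In the fibrosarcomas the lists held rises and falls. In late nfsa 57.5% of all genes were called, 24.5% upwards. There 0 proteoglycans rose and 2 of 7 fell, Bgn (-1.10) among them. Of 21 other glycoproteins 5 rose and 8 fell, and of 11 receptors 2 rose and 6 fell. Those that fell included Itga5 (-2.36), the fibronectin receptor chain, and Cd44 (-2.15), the hyaluronan receptor. In the late induced fibrosarcoma 67.7% of all genes were called. There 5 of 8 crosslinkers rose, P4ha2 (prolyl hydroxylase, 2.50) and Plod2 (1.49) among them. Of 21 other glycoproteins 5 rose and 8 fell, the cartilage thrombospondin Comp (-2.16) among those that fell. In late mca4 (gamma) 63.7% of all genes were called, 35.1% downwards. There 6 of 21 other glycoproteins rose and 6 fell, with Tgfbi at 2.71. Of 7 TGF-beta genes 2 rose and 3 fell, Tgfb1 (-1.48) among those that fell.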

How the data were processed

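RNA of transplanted tumours was measured on 121 CodeLink 1-colour arrays. The labels' protocols name ISOGEN and RNeasy for extraction and Cy5 as the dye. Each deposited value is an intensity on a linear scale, and how the authors normalized, corrected and filtered the spots is not given in the sources used here. Gamma arrays had medians of 1.31 to 1.85 and lacked 9.99 to 18.62% of probes, and carbon arrays had medians of 1.04 to 1.07 and lacked 0.54 to 4.92%. Only groups of the same experiment were therefore contrasted, though the fit shared the spread over both. The number of arrays limits the precision, since no depth exists for intensities.

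Of 36227 probes 21615 carried 1 symbol in the platform annotation, 681 several and 13931 none, and 21487 of the single-symbol probes matched the RefSeq gene table. Intensities under 0.1269, which is percentile 5 of all values above 0, were raised to it before log2 (1831 values were at or below 0), and missing values were not filled in. Probes needed values on 90% of arrays and a mean above the 20th percentile (intensity 0.4744), with the brightest probe per gene. limma 3.58.1 (R 4.3.3) fitted 1 mean per group to both experiments at once, with 67 residual degrees of freedom and a mean-variance trend. The 51 contrasts were tested 2-sided, adjusted by Benjamini and Hochberg over all genes tested in each contrast, and called at an adjusted p under 0.05. Values after ± are SE of log2 changes unless SD is named. Late gamma groups were set against unirradiated arrays of day 1, or day 9 in mmca. Python 3.11.15 and matplotlib 3.10.9 drew the figures, and the fit was tested on simulated data.

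The members and gene lists were chosen with earlier results of these data known. All members are named, with up to 3 called genes of largest change per list and the genes nearest in pattern. Alternatives covered normalization, floor, filter, trend, weights, arrays in the fit, controls, replicate block and leaving out each array, and 3 choices of control were added after seeing the data. The main fit held no block, so its SE and p-values are unpaired in every tumour. For judging the block, same-numbered arrays counted as paired where 3 or more pairs of groups could be compared and each correlated over 0.1. That held in carbon mca4 (15 pairs, 0.135 to 0.355), where the block ended no call. In carbon mmca 14 of 15 pairs passed (0.043 to 0.484), and the induced fibrosarcoma had 1 pair (0.112, carbon). Each member had 1 probe, so a second probe could not be compared.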

Additional observations from a re-analysis of the deposited data

Results flagged for a closer look

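The change after irradiation differed between tumours, by a test of the difference itself, for 22 of 49 member values, in contrasts where 0.286 to 54.6% of all genes passed. Groups held 2 or 3 arrays, too few to check single arrays for outlying values. At day 1 after gamma rays the mean of the mammary carcinomas exceeded that of the fibrosarcomas for Postn (0.96 log2), Thbs4 (1.94) and Tnc (0.72). The Thbs4 difference (adjusted p = 0.0384) ended without any of 7 of the 8 controls and that of Postn without nfsa control replicate 2, and both ended with the arrays of 1 experiment. At day 1 mmca exceeded mca4 for Lum (2.62), Dcn (3.05), Thbs2 (0.93), Thbs4 (5.31), Sparc (0.57) and Tnc (1.25), those of Lum, Thbs2 and Sparc resting on single control arrays. At later times the mammary carcinomas exceeded the fibrosarcomas for Lum (1.95) and Postn (1.80) and were lower for Sparc (-0.38), which was 0.16 under quantile normalization. At later times the change in mmca exceeded that in mca4 for Dcn (2.75), Postn (1.68), Thbs2 (1.98), Thbs4 (3.94), Sparc (0.87) and Tnc (1.95). These changes start from controls of unlike day, with all 7 members lower in unirradiated mmca than in mca4 at day 1. At later times the induced fibrosarcoma was below nfsa for Thbs2 (-0.85), Thbs4 (-2.77), Sparc (-0.77) and Tnc (-0.60), and none of the 4 passed under quantile normalization.

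Both day 1 differences involving mmca start from unirradiated mmca arrays with a muscle marker sum of 22.8 and 24.4, against 478 to 544 in mca4. The 0 Gy arrays of mmca at day 9 gave day 1 changes of 2.44 for Thbs4, 2.12 for Dcn and 2.04 for Lum when used as the control, and all 7 members then passed.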

How the results depend on the processing

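The 7 tested members gave 357 values over the 51 contrasts. A floor at the 10th percentile changed no call, and dropping the brightness filter or the mean-variance trend ended 2 and 1 of them. Among values called in the main fit or under the alternative, direction reversed under 3 settings only, and the cause was not tested. Sign changes between values called in neither were not counted. Quantile normalization moved the all-gene median by over 0.1 log2 in 18 of 51 comparisons (at most 0.2678). Under it the reversed values were Sparc (0.0429) and Tnc (0.11) between 70 and 30 Gy in the induced fibrosarcoma, and in nfsa Sparc -0.0736 and Tnc -0.11 over day 9, Sparc -0.0465 and Tnc -0.0329 at 30 Gy day 4, Sparc -0.064 and Tnc -0.12 at 30 Gy day 9, Tnc -0.0394 at 50 Gy day 4 and Sparc -0.0833 and Tnc -0.10 at 50 Gy day 9. The mammary minus fibrosarcoma difference of late changes was 0.16 for Sparc. With missing values first set to the floor, Sparc was 0.0052 and Tnc 0.0728 in the induced fibrosarcoma, and in nfsa, in the same order, Sparc -0.0536 and Tnc -0.10, Sparc -0.0197 and Tnc -0.0241, Sparc -0.0402 and Tnc -0.11, Tnc -0.0328, and Sparc -0.067 and Tnc -0.0915. The mammary minus fibrosarcoma value of Sparc was 0.15, and Thbs4 at 30 Gy day 9 in nfsa, where 1 array lacked a value, was -3.27. With the day 1 controls of both mammary carcinomas as the reference (chosen after seeing the data) these reversed, mmca Sparc at day 1 (-0.0303) and 30 Gy day 9 (-0.31), and mca4 at day 1 Dcn 1.80, Thbs4 2.11, Sparc 0.26 and Tnc 0.72; over days 11 and 25 Thbs2 0.47, Thbs4 1.21 and Tnc 0.24; at day 11 Lum 1.78, Dcn 1.70, Thbs4 0.39 and Tnc 0.16; at day 25 Thbs4 2.04 and Tnc 0.32; at day 41 Dcn 0.0788 and Thbs4 0.26.

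Counts of called members also moved. Gamma day 1 (6) went to 20 with arrays of the groups contrasted alone, 3 with 30 Gy alone, 10 with 70 Gy alone and 0 with 1 value per group. The late gamma means (15) went to 9 with missing values at the floor and 3 with 1 value per group, and the late gamma groups (45) to 24 with missing values at the floor. The 70 against 30 Gy count (5) went to 0 under either quantile setting, 16 with array weights and 19 with arrays of the groups contrasted. The gamma comparisons without controls (2) gave 1 under quantile normalization, and 0 with missing values at the floor or with the arrays contrasted. Carbon times (21) gave 35 with array weights, 54 with arrays of 1 experiment and 53 with arrays contrasted, and carbon late groups (8) gave 5 and 5 under the quantile settings, 16 with 1 experiment and 17 with arrays contrasted. Unirradiated tumours (9) gave 14 with arrays contrasted, and differences of changes (22) gave 8 with missing values at the floor. Leaving out 1 array gave 4 to 6, 13 to 16, 36 to 46, 4 to 5, 0 to 3, 17 to 21, 5 to 8, 8 to 9 and 18 to 23 calls, in the order gamma day 1, late means, late groups, dose, comparisons without controls, carbon times, carbon late, unirradiated and differences. With replicate number as a block the counts in the same order were 6, 13, 43, 5, 3, 19, 8, 9 and 20. The block ended 9 calls and gave 2 (Postn -0.93 at 30 Gy day 9 in nfsa, Lum -1.87 in nrs1), 2 of those it ended being in carbon mmca (Thbs2 at 6 hours, Sparc at day 20), where 14 of 15 pairs of groups met the rule for pairing. The arrays carry no spot background, so signal over background could not be judged.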
